A study of Mus musculus with 9 samples.

Results

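The cytosolic heat shock chaperones Hspa8, Dnaja1 and Hsph1, (3 genes) were followed across 9 arrays that set castrated against sham-operated mice. The members were all array features whose platform annotation gives one of these symbols alone. There were 4 such features of 11552 on the array, namely feature 3689 for Hspa8, features 831 and 9489 for Dnaja1 and feature 7596 for Hsph1. Hspa8 and Hsph1 are therefore each seen through 1 spot sequence, while Dnaja1 is seen through a pair of features.

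The arrays compared C57BL/6 mice castrated at 7 weeks with matched sham-operated mice, 1 pair of mice on each array. Young pairs were taken at 17 weeks and old pairs at 59 weeks. Femur, tibia and humerus were collected, and marrow and bone of the young mice were hybridised apart, which gave a young bone group and a young marrow group of 3 arrays each. The 3 arrays of the old group are labelled as bone marrow. The labels leave out whether these specimens also held bone, and whether a given mouse pair gave both of the young specimens. Since each value is a ratio within an array, the labelled tissue could not be checked against the level of its markers.

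Hspa8 encodes HSC70, the abundant constitutive cytosolic HSP70, which holds and releases unfolded clients in a cycle driven by ATP. Dnaja1 encodes a J-domain protein of the HSP40 family, which delivers clients to HSP70 and stimulates its ATPase. Hsph1 encodes HSP105, an HSP110 family protein that exchanges nucleotide on HSP70 and lets the client go. Genes of this system are known targets of heat shock factor 1, which binds promoters at repeats of the GAA unit and its complement.

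RefSeq promoter sequence (GRCm38.p6) was at hand for 2 of the 3 genes, Dnaja1 and Hsph1. It is shown as a description of these genes, with a match of GAA units in opposite orientation in capitals. Whether it bears on the values below was not tested. For Dnaja1 the stretch is chr4:40722308-40722387 on the plus strand, and its match, GAAAATTC, begins 124 bases before 1 of its 3 annotated starts; the windows of the other starts hold no match. For Hsph1 the stretch is chr5:149636337-149636416 on the minus strand, read 5′ to 3′ along the gene, and its match, TTCTCGAA, begins 33 bases before the nearer of its annotated starts.
Dnaja1: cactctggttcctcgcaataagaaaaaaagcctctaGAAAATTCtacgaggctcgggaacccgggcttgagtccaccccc
Hsph1: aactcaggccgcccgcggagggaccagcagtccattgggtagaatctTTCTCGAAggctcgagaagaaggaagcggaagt
The motifs searched were GAANNTTC and TTCNNGAA, each its own reverse complement, in the 250 bases before the start. GAANNTTC was in 6.69% and TTCNNGAA in 7.17% of 32851 promoter windows, and 12.8% held at least 1 of them, overlapping matches included. Among the 16 heat-inducible cytosolic genes with a window, which include Dnaja1 and Hsph1, 9 held at least 1 in any of their windows, against 14.5% of all 27025 genes. Because the list was chosen as heat-inducible genes, a higher share could be foreseen and says nothing about these arrays. Nor are the 9 all separate, since the windows of Hspd1 and Hspe1 overlap and hold the same sites. A longer motif, with 1 more unit, was searched as well in the same 250 bases. It was in 0.466% of the 32851 windows and in 2 of the 16 heat-inducible genes, Hspd1 and Hspe1. Neither Dnaja1 nor Hsph1 held it. A match is a description of the letters, and binding was not measured here.

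Each deposited value is the log ratio of an array's dye channels, read here as log2, since the labels give no base. The labels describe all 9 arrays as castrated against sham, and on 3 of them (young bone 3, young marrow 2 and old group 2) the castrated mouse was in Cy3. The direction was therefore read as castrated over sham, as likely from the labels. The main fitted values are also given under the channel reading, Cy5 over Cy3, in which the sign of those 3 arrays is turned. The median ratio of the 14 B lymphocyte marker features lay between 0.49 and 1.005 on all 9 arrays as deposited, the 3 swapped ones included. Arrays held 8290 to 10995 values, and their standard deviation was 0.192 to 0.294 on 8 arrays and 0.454 on old group 1. Whether p-values cover more than the spread between these pairs of mice is not given by the labels, and in whole tissue fewer cells of a type and less RNA per cell cannot be told apart.

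Hspa8 had log ratios of -0.58, -0.20 and 0.02 in young bone, 0.07, -0.24 and 0.61 in young marrow, and 0.29, -0.05 and -0.46 in the old group, for replicates 1 to 3. Young bone 1 and old group 3 were the low arrays and young marrow 3 the high one. The 3 groups overlapped, and each held values on both sides of 0. On young bone 1, 92 of the other features among 10310 with a value were lower than Hspa8 (0.892%). On young marrow 3, 158 of 8290 were higher (1.91%). The young bone mean was -0.25 ± 0.30, the young marrow mean 0.15 ± 0.43 and the old group mean -0.073 ± 0.376 (SD, n = 3 each), so that each SD exceeded its mean.

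Feature 831 of Dnaja1 gave -0.59, -0.25 and -0.01 in young bone, 0.10, 0.02 and 0.87 in young marrow, and 0.37, -0.10 and -0.51 in the old group. The same 3 arrays stood at the ends as for Hspa8. All young bone values were below 0 and all young marrow values above it, while the old group overlapped both. With the swapped arrays turned, young bone 3 becomes 0.01 and young marrow 2 becomes -0.02, and young bone and young marrow then overlap. On young marrow 3 only 50 of 8290 features were higher (0.603%), and on young bone 1 only 87 of 10310 were lower (0.844%).

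As deposited, the second Dnaja1 feature, 9489, did not follow the first. It gave 0.12, 0.15 and -0.20 in young bone, -0.03 and -0.01 on young marrow 1 and 2, no value on young marrow 3, and 0.09, -0.31 and -0.13 in the old group. On young bone 1, where feature 831 was at -0.59, feature 9489 was at 0.12. Its 3 values with the castrated mouse in Cy3 were all below 0, with a mean of -0.173, against a mean of 0.040 over 5 arrays with the castrated mouse in Cy5. Which of these features reports Dnaja1 transcript better cannot be told from the ratios, so each Dnaja1 value is named by its feature.

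Hsph1 had the widest range of the 3 genes. It gave -0.69, -0.21 and -0.48 in young bone, 0.12, -0.07 and 0.79 in young marrow, and 0.21, -0.27 and -1.01 in the old group. Young bone was below 0 on all 3 arrays and did not overlap young marrow as deposited. Read by channel, young bone 3 becomes 0.48, and these groups overlap. On old group 3 only 4 of 8981 features with a value were lower than Hsph1 (0.0445%). The young bone mean was -0.46 ± 0.24, the young marrow mean 0.28 ± 0.45 and the old group mean -0.36 ± 0.62 (SD, n = 3 each).

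**Figure D1:**
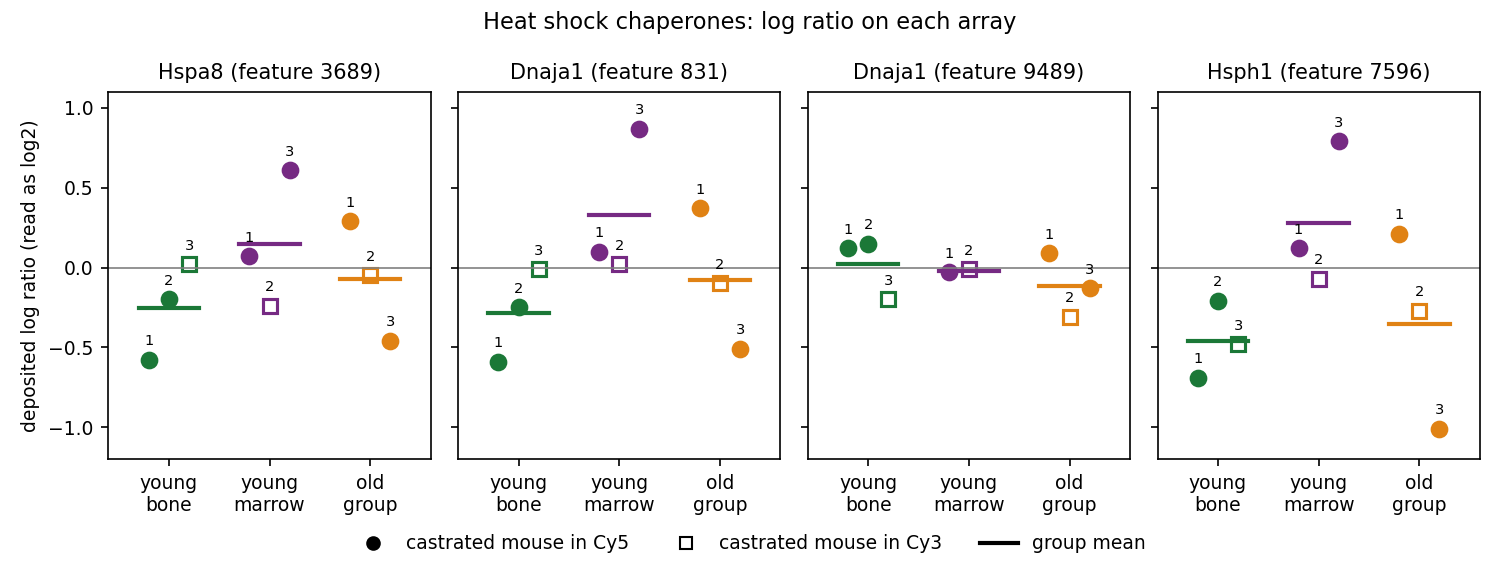
Deposited log ratio (vertical axis, read as log2, castrated over sham) of the 4 features on each array by group; numbers are replicates, filled circles mark the castrated mouse in Cy5, open squares in Cy3, and bars are group means. Hspa8, Dnaja1 feature 831 and Hsph1 are low on young bone 1 and old group 3 and high on young marrow 3, while Dnaja1 feature 9489 stays between -0.31 and 0.15.

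No member feature passed the test for a castration effect in any group. The fit was limma over 8885 features with a term for each group and 1 for dye, with Benjamini-Hochberg adjustment over all features and a threshold of 0.05. Called features made up 0.259% of all tested in young bone, 0.844% in young marrow, 0.732% in old mice and 4.04% in the average of the 3 groups. Under the channel reading 0.0% were called in each of these, although 606, 67, 203 and 418 features had an unadjusted limma p under 0.05, in the same order. A count of 0 of 4 members is near these shares.

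The fitted ratio of Hspa8 in the average of the 3 groups was -0.068, with a 95% interval of -0.311 to 0.176 and a limma adjusted p of 0.86. That of Dnaja1 feature 831 was -0.016, with an interval of -0.278 to 0.246 and an adjusted p of 0.97. Feature 9489 averaged -0.062, from -0.200 to 0.075, with an adjusted p of 0.73. All 3 intervals hold 0. Hsph1 had the average farthest from 0, at -0.202, with an interval of -0.490 to 0.085 and an adjusted p of 0.52. With arrays weighted by their overall quality it was -0.271 and passed the threshold (limma adjusted p 0.032). That estimate of the weights stopped before it converged, and with it 18% of all features were called in the average. With weights estimated gene by gene, added after seeing the data, Hsph1 was at -0.261 and did not pass (limma adjusted p 0.079). There 11.9% of all features were called. Read by channel, the averages were 0.022, 0.014, 0.096 and 0.071 for Hspa8, feature 831, feature 9489 and Hsph1, so that the sign of each depends on the reading.

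By group, the fitted value of Hsph1 in young bone was -0.484 (95% interval -0.962 to -0.005), with a limma p of 0.048 before and 0.56 after adjustment. By the channel reading it was -0.073. In young marrow Hsph1 was at 0.256 and in the old group at -0.380, with adjusted p of 0.70 and 0.35 by limma, against 0.394 and -0.109 by channel. Leaving out 1 array moved these to between 0.025 and 0.48 and between -0.64 and -0.03. Hspa8 was at -0.261, 0.139 and -0.081 in the same order of groups, and Dnaja1 feature 831 at -0.288, 0.325 and -0.085. The limma adjusted p of these 6 values lay between 0.61 and 0.84. In young bone, leaving out 1 array moved Hspa8 to between -0.526 and -0.09 and feature 831 to between -0.544 and -0.13, and in young marrow feature 831 to between 0.06 and 0.58. By channel Hspa8 was at -0.244, 0.329 and -0.017 and feature 831 at -0.271, 0.322 and -0.008. Feature 9489 was at -0.014, -0.020 and -0.154, against 0.182, -0.010 and 0.116 by channel.

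**Figure D2:**
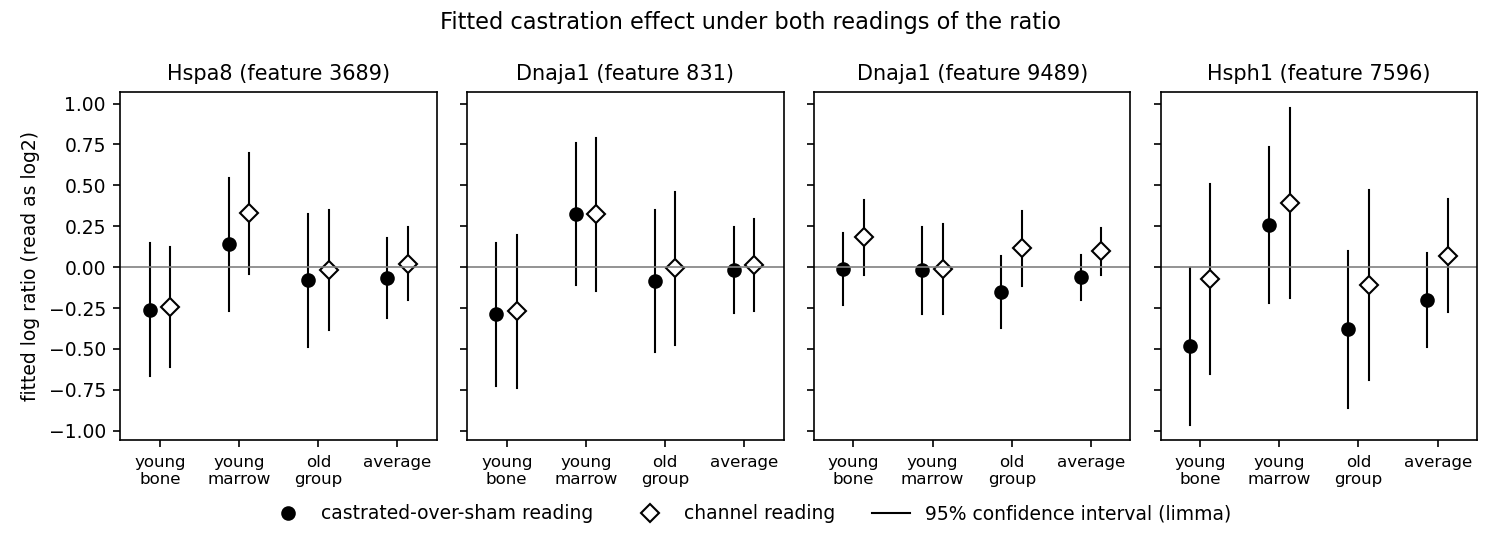
Fitted log ratio with its 95% confidence interval from limma (vertical axis, read as log2) for each group and for their average, under the castrated-over-sham reading (filled circles) and the channel reading (open diamonds). Every interval spans 0 apart from that of Hsph1 in young bone under the first reading, which ends at -0.005 and has an adjusted p of 0.56.

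The difference between young marrow and young bone was positive for 3 of the 4 features and passed the test for none. It was 0.400 for Hspa8 (95% interval -0.162 to 0.962), 0.613 for Dnaja1 feature 831 (0.008 to 1.218) and 0.740 for Hsph1 (0.077 to 1.403). The limma adjusted p were 0.96, 0.96 and 0.93. Across all features 0.0% were called in this comparison, with 453 at an unadjusted limma p under 0.05. Leaving out 1 array moved the differences to between 0.155 and 0.668 for Hspa8, 0.324 and 0.832 for feature 831, and 0.488 and 0.932 for Hsph1. All 3 young marrow arrays lay above all 3 young bone arrays for 2 of the 3 member features with a value on each, feature 831 and Hsph1, and for 7.4% of the 7761 such features. Under the channel reading the 3 differences were 0.573, 0.593 and 0.467, again with 0.0% of all features called and 148 at an unadjusted limma p under 0.05. The arrays then separated for 1 member feature, Hspa8, and for 3.09% of all. Feature 9489 differed by -0.006 under the castrated-over-sham reading and by -0.192 under the channel reading.

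The castrated-over-sham ratio of Hsph1 was lower in the old group than in young marrow. The fitted difference was -0.637 (95% interval -1.300 to 0.027), with a limma adjusted p of 0.35. For Hspa8 this difference was -0.220 and for feature 831 -0.410, with adjusted p of 0.67 and 0.47 by limma. Leaving out 1 array moved Hsph1 to between -0.92 and -0.255 and feature 831 to between -0.65 and -0.121. Here 0.0% of features were called, with 1292 at an unadjusted limma p under 0.05. By channel the differences were -0.503 for Hsph1, -0.347 for Hspa8 and -0.330 for feature 831. Feature 9489 differed by -0.134 under the castrated-over-sham reading and by 0.126 under the channel reading. Between the old group and young bone the differences were 0.180, 0.203, -0.140 and 0.103 for Hspa8, feature 831, feature 9489 and Hsph1. In that comparison 1 feature (0.0113%) was called among all tested and none of the members. By channel these differences were 0.227, 0.263, -0.067 and -0.037, and 0.0% of features were called.

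Hspa8, Dnaja1 feature 831 and Hsph1 varied widely between arrays of one group. The residual SD of the fit was 0.408 for Hspa8, wider than that of 94.8% of the 8885 features tested. It was 0.446 for feature 831 (wider than 96.9%) and 0.498 for Hsph1 (wider than 98.3%), against a median of 0.185 over all features. For feature 9489 it was 0.128, wider than 21.3%. Turning the swapped arrays, the residual SDs were 0.338, 0.459, 0.588 and 0.119, against a median of 0.203. These percentages are descriptions of the members' place among all features and carry no test.

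The spread of the 3 features was shared. Over the 9 arrays the Pearson correlation of Hspa8 with feature 831 was 0.969 and Spearman's rho 0.900. The exact two-sided permutation p over all pairings of arrays was 9.9e-05 for r and 0.002 for rho, or 0.0012 and 0.0049 after Benjamini-Hochberg adjustment over the 12 coefficients of the 6 pairs of features. Without young bone 1 and young marrow 3, the arrays farthest from the median of Hspa8, r was 0.912. Within the 6 arrays with the castrated mouse in Cy5 it was 0.995, the 3 swapped arrays being too few for a value of their own, and with group means removed it was 0.978.

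Hsph1 followed both. Its r was 0.889 with Hspa8 (rho 0.817; exact permutation p 0.0019 and 0.011, adjusted 0.0049 and 0.022) and 0.936 with feature 831 (rho 0.917; exact permutation p 0.00039 and 0.0013, adjusted 0.0023 and 0.0049). Without the pair of arrays farthest from the median of the first gene, these r were 0.763 and 0.872. Within the arrays with the castrated mouse in Cy5 they were 0.960 and 0.958. Under the channel reading the 3 correlations were 0.959, 0.882 and 0.890, with rho of 0.700 between Hspa8 and Hsph1 (exact permutation p 0.043, adjusted 0.087). Since the 3 genes were brought together with results of these data known, these p-values are not independent evidence. The 3 features share their arrays, and each array gives 1 point. The labels leave out whether young bone and young marrow share mouse pairs. If they do, the points are not all independent, which the permutation takes no account of.

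Feature 9489 passed no test of correlation with the other 3 features. Over 8 arrays its r was -0.147 with Hspa8, -0.049 with feature 831 and 0.248 with Hsph1, with exact permutation p of 0.73, 0.91 and 0.55. By the channel reading these r were 0.174, 0.291 and 0.566 (exact permutation p 0.67, 0.48 and 0.15), so that a pair of them turn sign. With group means removed they were -0.047, 0.052 and 0.325 as deposited, and 0.63, 0.635 and 0.784 by channel.

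**Figure D3:**
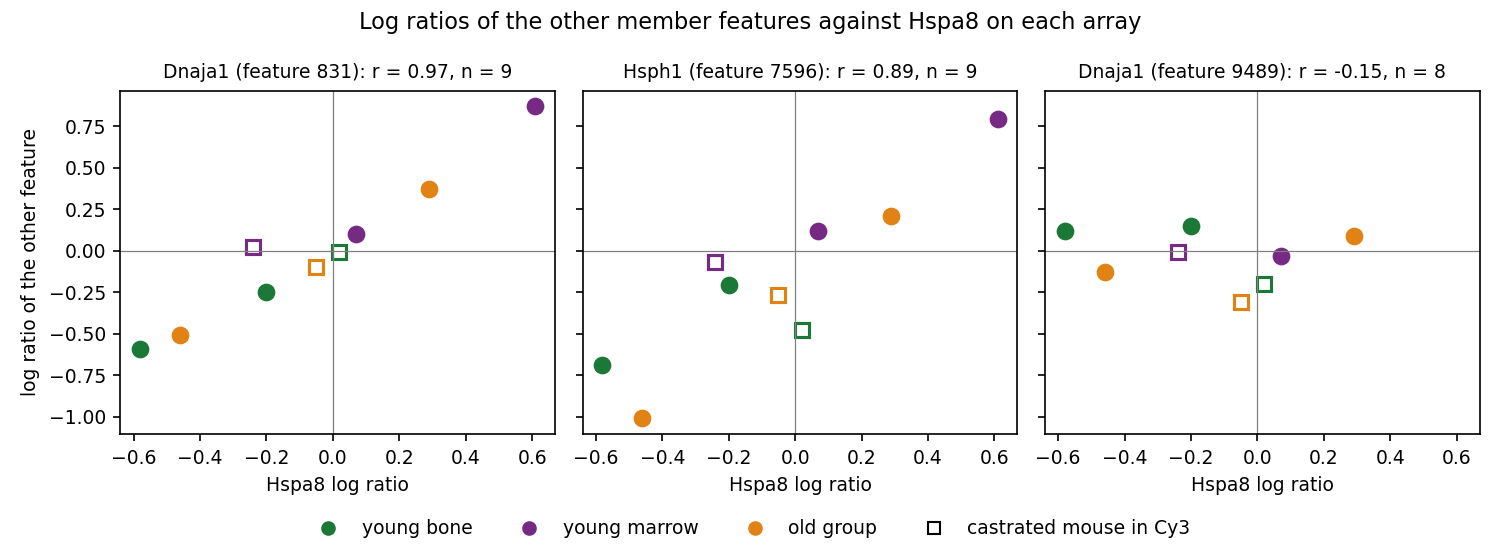
Log ratio (read as log2) of each other member feature (vertical axis) against that of Hspa8 (horizontal axis) on each array, coloured by group; open squares mark the castrated mouse in Cy3. Dnaja1 feature 831 (r = 0.969) and Hsph1 (r = 0.889) rise with Hspa8 over 9 arrays, while feature 9489 (r = -0.147, 8 arrays) does not.

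Ranked over the 7543 other features with a value on every array, the closest to Hspa8 were Dnaja1 feature 831, a feature of Hoxd13 (a homeodomain factor of limb patterning, r = 0.957) and Hsph1. Only 14 of the 7543 features (0.186%) had an r above 0.8 with Hspa8. By channel the closest were feature 831 (0.959), Hoxd13 (0.957) and the small GTPase Rab14 (0.94), Hsph1 was in place 7, and 17 features (0.225%) passed 0.8. For Hsph1 the closest was a feature of Chordc1, a co-chaperone of HSP90, at 0.945, followed by Dnaja1 feature 831 at 0.936 and Hoxd13 at 0.902, with Hspa8 in place 4. By channel Chordc1 came first for Hsph1 too (0.935), before Mme (0.904) and Dynll1 (0.891), with feature 831 in place 4 and Hspa8 in place 8. For the mean of the Dnaja1 features, which on young marrow 3 holds feature 831 alone, the closest were Thap2 (0.947), Chordc1 (0.938) and Ccdc127 (0.915), with Hsph1 in place 4 and Hspa8 in place 10. By channel that mean was closest to Hsp90aa1 feature 10938 (0.957), Chordc1 (0.923) and Srgap3 (0.901), with Hspa8 in place 8 and Hsph1 in place 12. Feature 831 alone was closest to Hspa8 (0.969), Hoxd13 (0.962) and Hsph1 (0.936), and by channel to Hsp90aa1 feature 10938 (0.98), Hspa8 (0.959) and Hoxd13 (0.958). These are descriptions over 9 arrays, with no p.

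Chordc1 feature 3839 gave -0.24, -0.08 and -0.30 in young bone, 0.12, 0.08 and 0.71 in young marrow, and -0.01, -0.18 and -0.49 in the old group. It was low and high on the same arrays as Hsph1, young bone 3 included. A second Chordc1 feature had an r of 0.437 with Hspa8, against 0.777 for feature 3839. The Hoxd13 feature gave -0.40, -0.24 and -0.04, then -0.01, -0.08 and 0.50, then 0.42, -0.03 and -0.47, with its lowest values on old group 3 and young bone 1 and its highest on young marrow 3.

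The likeness of other chaperones to the members was counted in the same way. Of 80 chaperone features of 56 other genes, 22 (27.5%) had an r above 0.5 with Hspa8, against 268 of 7541 (3.55%) over all features. With Dnaja1 feature 831 it was 31 (38.8%) against 407 (5.40%), and with Hsph1 26 (32.5%) against 326 (4.32%). Some of these features are repeats of 1 gene, so the counts are descriptions. As deposited, all 9 Hsp90aa1 features with a value on every array had an r above 0.5 with Hspa8, feature 831 and Hsph1. By the channel reading the shares of the 80 were 30.0%, 37.5% and 32.5%, against 3.25%, 4.76% and 5.15% over all features.

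By role, the lists had these medians. The median r with Hspa8 was 0.628 over 17 features of HSP90 and its cofactors. It was 0.635 over 15 features of heat-inducible cytosolic genes, a list that shares members with the first. In both lists 9 features are repeats of Hsp90aa1, with r of 0.579 to 0.836, so these medians largely reflect that gene. The other features ran from -0.598 (Trap1) to 0.83 (Hsp90b1) in the HSP90 list and from 0.12 (Hspa4l) to 0.777 (Chordc1) in the heat-inducible list. It was 0.317 over 15 features of chaperonins and of prefoldin, which passes actin and tubulin to the cytosolic chaperonin. Over 9 features of HSP70 cofactors it was 0.183, over 8 of the HSP70 and HSP110 family 0.162, over 23 of the endoplasmic reticulum chaperones 0.155 and over 17 of the J-domain proteins -0.062. Over all features the median was -0.015. Differences between lists were not tested.

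Hsp90aa1, the heat-inducible cytosolic HSP90, is on the array 12 times, and its 9 features with all values had r of 0.579 to 0.836 with Hspa8 and 0.510 to 0.823 with Hsph1. All 9 were between -0.56 and -0.29 on young bone 1, between -0.61 and -0.27 on old group 3 and between 0.26 and 0.53 on young marrow 3. They were between 0.08 and 0.71 on young bone 3, where Hsph1 was at -0.48 and Hspa8 at 0.02. They were between 0.22 and 0.43 on young marrow 2, where Hspa8 was at -0.24. Both of these arrays carry the castrated mouse in Cy3, and the part of the dye in this difference was not tested.

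Among genes picked out after their values were seen, St13, an HSP70-interacting co-chaperone, had an r of 0.868 with Hspa8. Hspa5, the HSP70 of the endoplasmic reticulum, had 0.856, with values of -0.57, -0.34 and 0.26 in young bone, 0.07, -0.09 and 0.29 in young marrow, and 0.38, 0.07 and -0.17 in the old group. Hsp90b1, the HSP90 of the same compartment, gave -0.52, 0.04 and 0.22, then 0.32, 0.20 and 0.64, then 0.27, 0.41 and 0.10. Both were low on young bone 1, and Hsp90b1 was not low on old group 3. Small heat shock proteins had no value in young marrow and could not be tested. Hspb1 feature 2313 gave -1.10, 0.38 and -0.39 in young bone and 0.53, -0.31 and -0.05 in the old group.

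**Figure D4:**
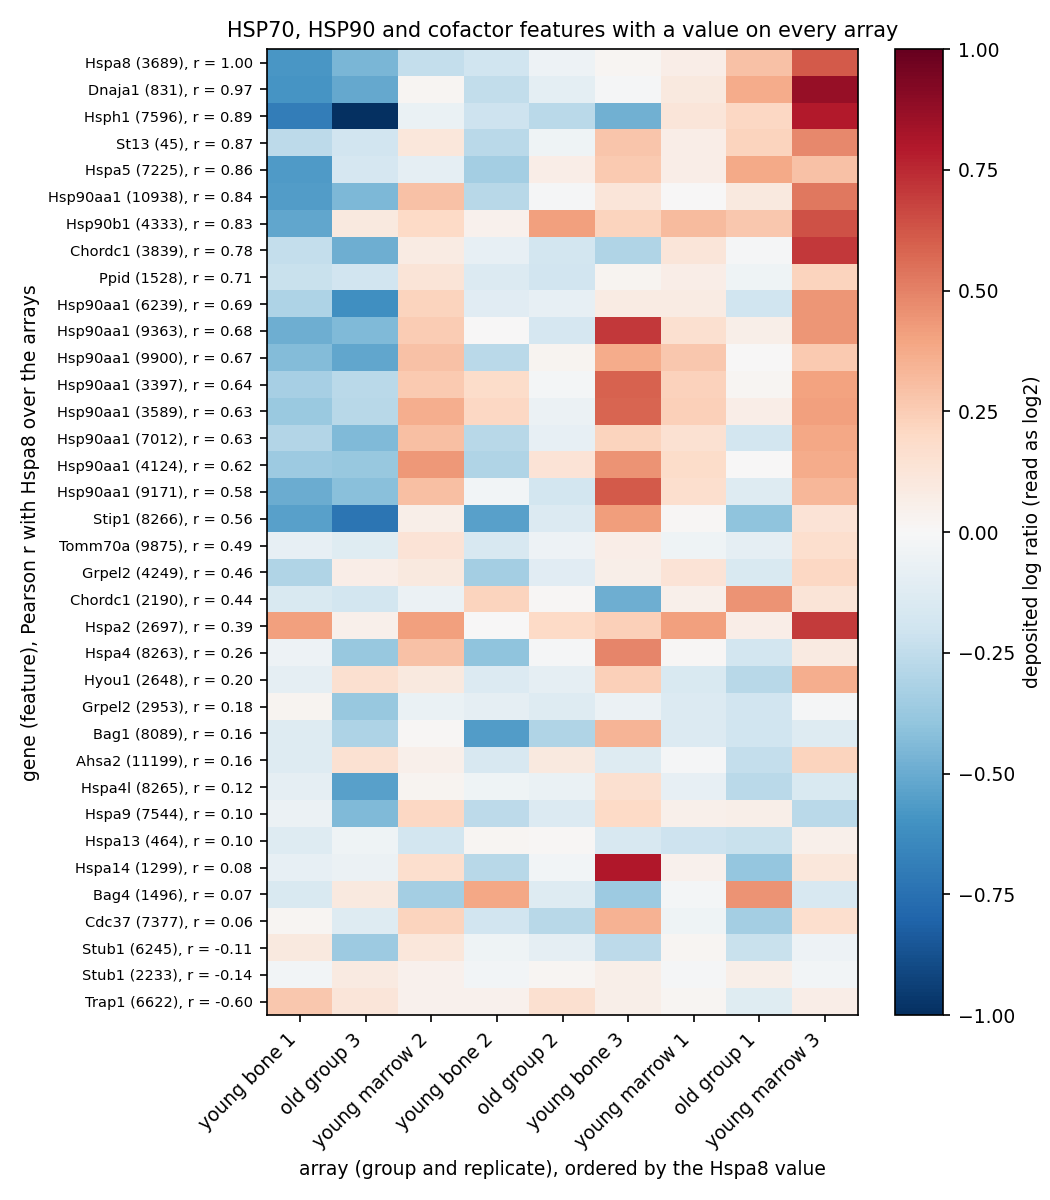
Deposited log ratio (colour, read as log2; values beyond the colour bar's ends take the end colour) of 36 features of 25 genes from the HSP70, HSP90 and cofactor lists and the members, with a value on every array; rows are ordered by Pearson r with Hspa8 and columns by the Hspa8 value. The Hsp90aa1 features share the low values of young bone 1 and old group 3 with Hspa8, Dnaja1 feature 831 and Hsph1, and are above 0 on young bone 3.

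Few chaperone genes passed the test for a castration effect. In the average of the 3 groups, against 4.04% of all features called under the castrated-over-sham reading, 1 of 12 features of the HSP70 and HSP110 family was called and 1 of 25 of the endoplasmic reticulum chaperones. The counts were 0 of 22 J-domain features, 0 of 10 of HSP70 cofactors, 0 of 18 of HSP90 and its cofactors, 0 of 15 of chaperonins and prefoldin, 0 of 21 of heat-inducible genes and 0 of 1 of the heat shock factors. At an unadjusted limma p under 0.05 these 6 lists held 2, 0, 1, 0, 0 and 0, against 1441 of all 8885 features. Median ratios lay between -0.060 for HSP70 cofactors and 0.015 for HSP90 and its cofactors, against -0.004 over all features. In single groups the medians lay on both sides of 0. Over all 8885 features, 933 had an unadjusted limma p under 0.05 in young marrow. The median of the HSP90 list was 0.297 in young marrow, with 17 of 18 features above 0 and 8 at that p. It was -0.069 in young bone and -0.095 in the old group. The heat-inducible list had 0.279 in young marrow (17 of 21 above 0, 7 at that p), -0.081 and -0.106, and chaperonins and prefoldin 0.185 (14 of 15 above 0, 2 at that p), -0.074 and -0.076. For old group minus young marrow the medians of these 3 lists were -0.400, -0.407 and -0.273, against -0.065 over all features. By channel the young marrow medians were 0.067, 0.074 and 0.028, with 0 features at that p and 0 called by limma in each. Over all features 67 were at that p by channel, and 0 were called. The first 2 lists share the repeated features of Hsp90aa1. No list had a call in any other comparison under either reading.

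The called family member was Hspa2, an HSP70 best known from the testis, with 0.41, 0.00 and 0.24 in young bone, 0.41, 0.41 and 0.70 in young marrow, and 0.07, 0.20 and 0.05 in the old group. No array was below 0. Its average was 0.278 (SE 0.065, limma adjusted p 0.040), and -0.005 under the channel reading. Herpud1, which acts in the degradation of misfolded proteins of the endoplasmic reticulum, averaged 0.257 (SE 0.061, limma adjusted p 0.044) and 0.093 under the channel reading, where neither was called.

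The genes with the smallest p in each list were otherwise short of the threshold. Among HSP70 cofactors and J-domain proteins the averages were -0.108 for Grpel2, -0.114 for Bag1 and -0.086 for Stub1, and -0.168 for Dnajb12, -0.151 for Dnajc3 and -0.128 for Dnajc10. Their limma adjusted p ran from 0.19 to 0.58. Hsp90b1 averaged 0.209, Hsp90aa1 feature 3589 0.170, the HSP70-HSP90 adaptor Stip1 -0.115, the prefoldin subunit Pfdn6 0.243, and the chaperonin subunits Cct2 and Cct7 0.103 and -0.078. Hspa13 averaged -0.099, Hspa4l -0.077, Ero1b 0.142 and Hsbp1, a binding protein of heat shock factor 1, -0.025. Genes with several features are given here by the feature of smallest p. The other tested Hsp90aa1 features averaged from -0.022 to 0.158, and those of Dnajc10 from -0.084 to -0.033. The other feature of Stub1 averaged 0.024, of Grpel2 -0.022, of Cct2 0.058 and of Hspa4l -0.060.

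Markers of other cell types were set beside the members array by array. The median of 8 skeletal muscle features of 6 of 13 listed genes was -1.09 on young bone 1, -0.155 and -0.52 on young bone 2 and 3, between -0.195 and 0.05 in young marrow, and 0.66, 0.07 and 0.215 in the old group. Muscle markers were thus lowest on young bone 1, where Hspa8, Dnaja1 feature 831 and Hsph1 were low and Dnaja1 feature 9489 was at 0.12. They were above 0 on old group 3, where Hspa8, feature 831 and Hsph1 were also low and feature 9489 was at -0.13. Over 9 arrays the muscle median had an r of 0.382 with Hspa8. The megakaryocyte and platelet list (7 features of 4 of 9 genes) lay between 0.04 and 0.64, with an r of 0.691 with Hspa8 and 0.592 with Hsph1. The monocyte and macrophage list had -0.427 and -0.626, and the adipocyte list -0.315 and -0.616. For the B lymphocyte, granulocyte, erythroid, osteoblast and cell cycle lists the r with Hspa8 lay between -0.161 and 0.195. The T and NK lymphocyte list had -0.166, the endothelial list -0.374 and the osteoclast list -0.045. The part of these cell types in the members' spread was not tested.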

How the data were processed

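Per the labels' protocols, RNA of pulverised bone was copied into aminoallyl cDNA, which was coupled to Cy3 or Cy5. The log2 values are the authors' deposited log ratios, 1 column for each of 9 arrays; their log base, direction, background correction and normalization are not given in the sources used here. The platform annotation gave 1 symbol for 8050 features, several for 672 and none for 2830. The members and gene lists were chosen with earlier results of these data known.

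Ratios were used as deposited. limma 3.58.1 (R 4.3.3) fitted 3 group terms and 1 dye term to the 8885 features with a value on at least 2 arrays of each group and 1 swapped array. With 9 values 5 residual degrees of freedom remain; the number of arrays limits the precision. The fit was tested on simulated data. Genes named were the members, list genes past the threshold, the 3 of smallest p in the average in each list, and the 3 features most like each member gene; others are said to have been picked after their values were seen. Same-numbered arrays had correlations of their deviations from group means of -0.37 to 0.6. All 3 pairs of young marrow and old group arrays were above 0.1 (0.27 to 0.6), though by channel 1 was at 0.066. These pairs share a dye layout, with the castrated mouse in Cy3 on replicate 2, while in young bone it was on replicate 3. The part of this layout was not tested. The mice of these pairs differ in age, and no label says what else a number shares. Pairs with young bone were not all above 0.1. Alternatives were the reading of the ratio, the dye term, filters, centring, scaling, array weights, a block and leaving out each array.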

Additional observations from a re-analysis of the deposited data

Results flagged for a closer look

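The difference between young marrow and young bone was flagged for Dnaja1 feature 831 under the castrated-over-sham reading, because all 3 young bone arrays were below 0 and all 3 young marrow arrays above it. The fitted difference was 0.613, with a limma p of 0.047 before and 0.96 after adjustment over all features. The same difference was flagged for Hspa8 under the channel reading, where it was 0.573 with a limma adjusted p of 1.0. Each signal came under 1 of the readings: as deposited, young marrow 2 had Hspa8 at -0.24 and lay within the range of young bone, and in the channel reading feature 831 was at 0.01 on young bone 3.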

How the results depend on the processing

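The Pearson correlations among Hspa8, Dnaja1 feature 831 and Hsph1 kept their sign and their side of the threshold (unadjusted exact permutation p) under every alternative run, all added after seeing the data, with 0.944 to 0.991, 0.791 to 0.931 (Hspa8 with Hsph1) and 0.875 to 0.958 (feature 831 with Hsph1) when each array was left out; the rho of Hspa8 with Hsph1 had an adjusted p of 0.087 under the channel reading. With a replicate block over the 3 groups 0 member features were called in all 7 comparisons, and the calls over all features were 52, 119, 69 and 411 in young bone, young marrow, the old group and the average. A replicate block over young marrow and old group arrays alone, added after seeing the data, changed no call: Hsph1 was -0.637 (limma adjusted p 0.24), and 0 of 8679 features were called, with 2174 at an unadjusted p under 0.05. Array weights gave Hsph1 an average of -0.271 with a limma adjusted p of 0.032, so that 1 member feature was called. That was beside 18% of all features, and the weights' estimate stopped before it converged. Gene-by-gene weights, added after seeing the data, gave -0.261 and a limma adjusted p of 0.079, with 11.9% of all features called. Other small fitted values changed sign. Under the channel reading the averages were 0.022 (Hspa8), 0.014 (feature 831), 0.096 (feature 9489) and 0.071 (Hsph1), feature 9489 was at 0.182 in young bone, 0.116 in the old group and 0.126 for old group minus young marrow, and Hsph1 at -0.037 for old group minus young bone. Feature 9489 in young bone was 0.023 with no dye term, 0.135 on unswapped arrays, 0.003 with arrays median-centred, 0.042 with array weights and 0.026 with gene-by-gene weights. On unswapped arrays feature 9489 averaged 0.028 and had 0.010 for old group minus young marrow; with array weights it was 0.003 in young marrow. Centring gave feature 831 an average of 0.002. With array weights and gene-by-gene weights Hspa8 was -0.059 and -0.041 in young marrow, and 0.057 and 0.014 for old group minus young marrow. The cause was not tested.

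Leaving out each array in turn turned the sign in 21 of 252 refits. The ranges were -0.181 to 0.066 and -0.125 to 0.093 for the averages of Hspa8 and feature 831, -0.085 to 0.451 for Hspa8 in young marrow, -0.255 to 0.12 and -0.305 to 0.135 for Hspa8 and feature 831 in the old group, and -0.04 to 0.056 and -0.186 to 0.146 for feature 9489 in young bone and young marrow. For young marrow minus young bone feature 9489 ran from -0.158 to 0.175. For old group minus young marrow Hspa8 ran from -0.488 to 0.025 and feature 9489 from -0.315 to 0.018. For old group minus young bone Hspa8 ran from -0.01 to 0.408, feature 831 from -0.037 to 0.443 and Hsph1 from -0.18 to 0.485. Calls over all features depended far more on the choices. In the average, 359 became 0 under the channel reading, 86 on unswapped arrays, 1599 and 1056 with array and gene-by-gene weights, and 96 to 574 with an array left out. In young bone, 23 became 0 (channel), 50 (no dye term), 1 (scaled arrays), 1 (unswapped), 130 and 76 (weights) and 1 to 80. In young marrow, 75 became 0, 175 (scaled), 3 (unswapped), 2005 and 1551 (weights) and 0 to 138. In the old group, 65 became 0, 13 (scaled), 13 (unswapped), 1594 and 328 (weights) and 10 to 1332. For old group minus young marrow, 0 became 2 with scaled arrays, 2 on features with all 9 values, 1975 and 481 with weights and 0 to 885; for young marrow minus young bone, 13 and 5 with weights; for old group minus young bone, 1 became 2 and 2 with weights and 0 to 31.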
